A study of Mus musculus with 4 samples.

Results

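The genes described here are 38 regulators of apoptosis, necroptosis and pyroptosis. They were chosen by name as members of the BCL2 family, caspases, death receptors and their adaptors and inhibitors. The choice was made with earlier results of these data known. Of the 38, 36 were measured, each by the brightest array row that carries its symbol alone, among 22180 genes tested. For the effector gene Bax and the kinase gene Ripk1 no value was used here. They were measured in BR5FVB1-Akt cells, a mouse line labelled as ovarian cancer, which the labels describe as cultured in DMEM with serum and antibiotics. The control group is 2 samples without the drug and the decitabine group is 2 samples given 10 uM decitabine for 72 h, each on 1 Affymetrix Mouse Gene 2.0 ST array of total RNA. The labels name no allele or transgene of the line beyond its name, which both groups share, and give neither its p53 status nor how many cells died. They call the samples biological replicates without saying whether these were separate cultures. The p-values therefore rest on the scatter among 4 arrays, which may be technical, and the number of arrays limits the precision. In such bulk RNA, fewer cells of a kind and less RNA per cell cannot be told apart.

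Apoptosis runs along a pair of routes. In the mitochondrial route, BH3-only proteins block the survival proteins BCL2, BCL-XL and MCL1 or activate BAX and BAK directly, the mitochondrial outer membrane opens, and cytochrome c assembles APAF1 and caspase-9 into the apoptosome. In the receptor route, FAS, the TRAIL receptor and the TNF receptor recruit FADD and caspase-8, which FLIP restrains, and when caspase-8 is inactive RIPK3 can phosphorylate MLKL, the executioner of necroptosis. Decitabine is a cytidine analogue that is built into replicating DNA, traps DNA methyltransferases there and lowers methylation of CpG pairs.

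Across these regulators the differences were small. The log2 fold changes of decitabine over control ran from −0.77 in Bmf to 0.36 in Fas, with a median of 0.05 beside 0.0040 over all genes, and 21 of the 36 were positive against 50.7% of all genes. The 95% confidence interval of limma excluded a 2-fold difference in either direction for 35 of the 36 genes, the exception being Bmf, against 96.0% of all genes. In the fit as designed, limma without an intensity trend, 0 of the 36 passed an adjusted p under 0.05, where 0.144% of all genes passed (0.131% higher and 0.0135% lower), and the smallest adjusted p of the 36 was 0.104. By unadjusted p (threshold 0.05), 3 regulators were higher and 3 lower, 16.7% of the 36 against 14.3% of all genes (7.34% higher and 6.97% lower). With an intensity trend in limma's variance model, which lets the expected spread depend on level, 3 of the 36 passed over all genes, Bmf and Casp6 as lower and Cycs as higher. That share, 8.33%, lay near the 7.28% of all genes that passed in that fit (3.68% higher and 3.6% lower). Robust eBayes passed 0 of the 36.

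**Figure D1:**
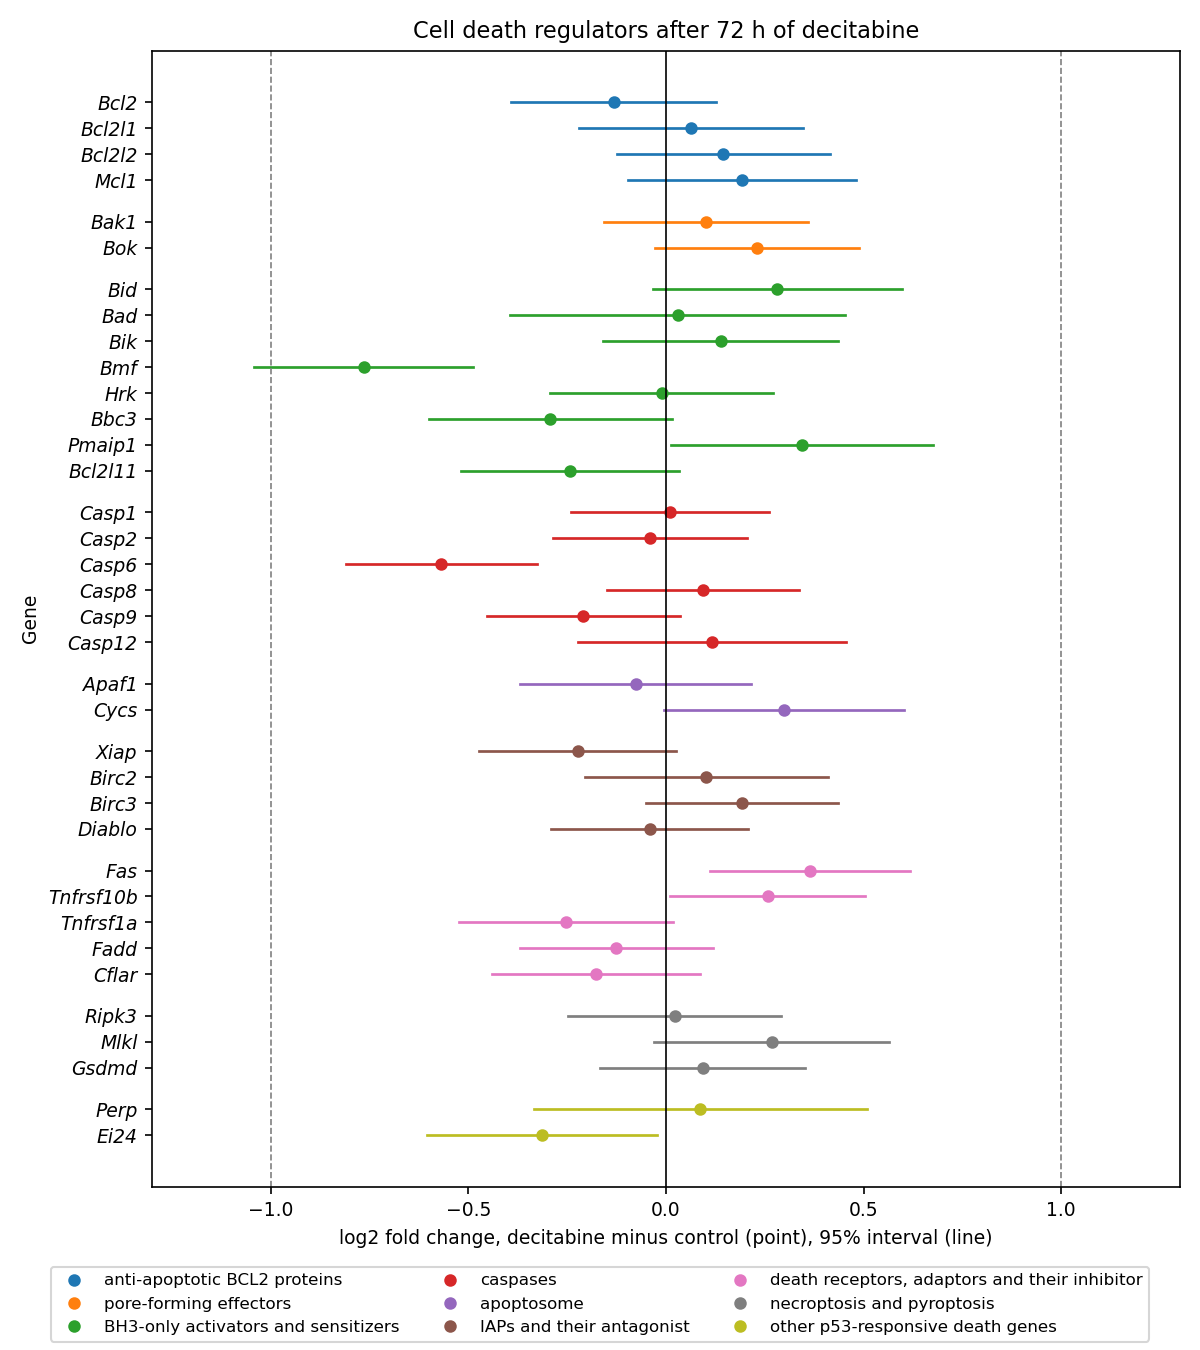
Log2 fold change of decitabine over control for the 36 measured regulators (horizontal axis), grouped by role, with limma's 95% confidence interval as a line and the dashed lines at a 2-fold difference. The intervals lie within 2-fold except that of Bmf, which reaches −1.04.

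Because decitabine acts on CpG methylation, the promoters of 5 regulators are shown, with each CpG pair in capitals. They are the 250 bases before the RefSeq transcription start on GRCm38.p6, written 5′ to 3′ on the gene's own strand. The set holds the 3 genes that passed with the intensity trend, then Hrk and Casp12. Hrk is a BH3-only gene with a CpG-rich promoter and little difference between groups. Its row is dim, with a mean level of 3.40, at the 18.5th percentile of all genes. Casp12 has a CpG-poor promoter.
Bmf, chr2:118549687-118549936, minus strand: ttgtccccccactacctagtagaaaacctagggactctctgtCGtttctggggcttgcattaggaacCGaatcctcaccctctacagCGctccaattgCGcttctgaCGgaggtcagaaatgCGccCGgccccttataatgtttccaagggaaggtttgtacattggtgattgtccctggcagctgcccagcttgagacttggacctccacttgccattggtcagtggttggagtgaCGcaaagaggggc
Casp6, chr3:129901165-129901414, plus strand: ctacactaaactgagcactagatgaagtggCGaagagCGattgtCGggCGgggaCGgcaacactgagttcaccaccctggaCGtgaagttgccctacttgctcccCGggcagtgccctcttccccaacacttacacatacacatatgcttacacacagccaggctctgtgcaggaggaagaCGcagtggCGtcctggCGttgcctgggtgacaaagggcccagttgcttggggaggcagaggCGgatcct
Cycs, chr6:50566570-50566819, minus strand: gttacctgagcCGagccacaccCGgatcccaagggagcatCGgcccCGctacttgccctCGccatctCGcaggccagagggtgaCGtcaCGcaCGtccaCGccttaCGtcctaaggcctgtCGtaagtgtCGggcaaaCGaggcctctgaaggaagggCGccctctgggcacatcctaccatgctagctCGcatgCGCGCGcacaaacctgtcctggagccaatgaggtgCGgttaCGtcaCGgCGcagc
Hrk, chr5:118169514-118169763, plus strand: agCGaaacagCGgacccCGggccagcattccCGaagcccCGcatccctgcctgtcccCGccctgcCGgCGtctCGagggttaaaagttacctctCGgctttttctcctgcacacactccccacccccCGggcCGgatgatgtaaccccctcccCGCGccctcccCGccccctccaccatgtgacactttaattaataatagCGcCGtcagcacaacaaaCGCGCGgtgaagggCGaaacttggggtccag
Casp12, chr9:5345226-5345475, plus strand: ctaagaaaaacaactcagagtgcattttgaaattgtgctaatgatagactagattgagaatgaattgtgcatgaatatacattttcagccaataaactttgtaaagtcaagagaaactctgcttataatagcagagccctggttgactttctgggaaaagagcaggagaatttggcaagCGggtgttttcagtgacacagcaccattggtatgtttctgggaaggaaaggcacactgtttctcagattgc
The Bmf window, that of the outermost of its 3 starts, holds 8 CpG pairs, that of Casp6 holds 11, that of Cycs 23, that of Hrk 21 and that of Casp12 1. Of the 38 regulators, 33 had a promoter in the table, 31 of them with array values. The background was the 27020 genes with a promoter there, measured on the arrays or not, and was not matched to the 31 for level. Taking the CpG-richest start of each gene, the 31 had a median of 13 CpG pairs against 6 in the background. Of the 31, 64.5% held at least 10 against 40.2%. By that CpG-richest start the genes ran from 1 CpG pair in Casp12 and in Casp1, the caspase that matures interleukin-1 beta, to 42 in Apaf1, and 1 of the other starts, in Bcl2l1, had 0. Spearman's rho between CpG count and log2 fold change was −0.21 over the 31 genes, and Pearson's r was −0.11, both given as descriptions of genes read from the same 4 arrays. Methylation itself was not measured here.

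**Figure D2:**
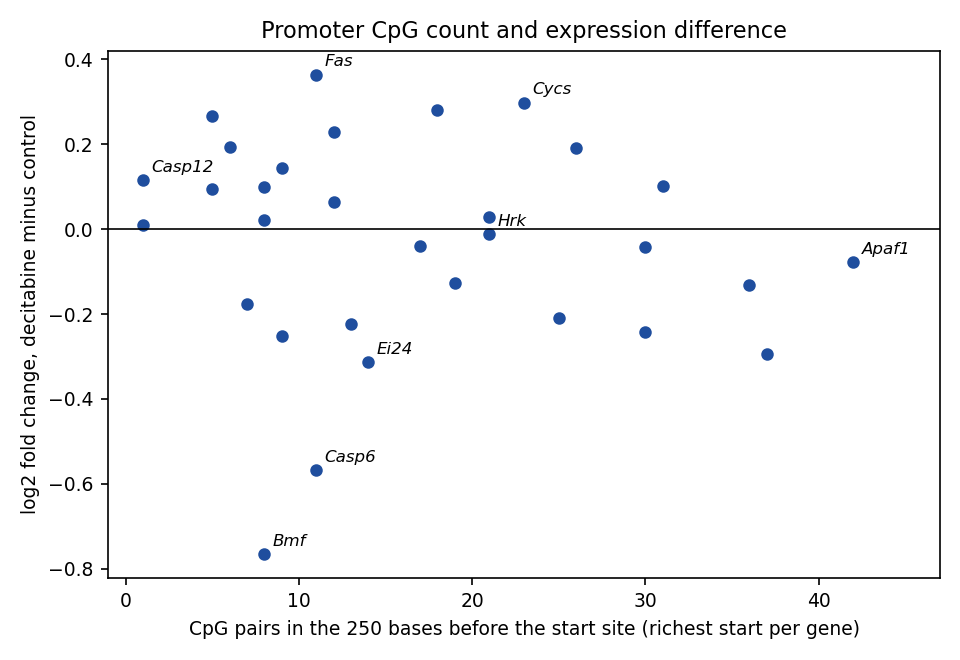
CpG pairs in the 250 bases before the CpG-richest start of each gene (horizontal axis, a count) against the log2 fold change of decitabine over control (vertical axis) for 31 regulators, 1 point per gene. Bmf and Casp6, the lowest points, have 8 and 11 CpG pairs, while Apaf1, with the most at 42, lies at −0.08.

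Among the survival genes of the BCL2 family, 0 of 4 passed in limma with or without the trend, and 0 had an unadjusted p under 0.05 without it. Bcl2, the founding inhibitor of mitochondrial apoptosis, was at 7.93 and 7.84 on the control arrays and at 7.79 and 7.72 on the decitabine arrays. Its log2 fold change was −0.13 ± 0.10 (limma's SE, 2 arrays in each group). That SE draws a gene's own scatter toward a spread shared by all genes, so it is not the scatter of its replicates alone. Mcl1, a short-lived survival protein's gene, was at 9.23 and 9.18 and then at 9.30 and 9.49, a log2 fold change of 0.19 ± 0.11. In both genes the groups of arrays did not overlap, yet each difference was under 2 standard errors in the fit without the trend. With the trend the SE of Mcl1 was 0.07, with an unadjusted p of 0.0260 and an adjusted p of 0.181 in limma. Bcl2l1, which encodes BCL-XL, was at 0.06 ± 0.11 and Bcl2l2, which encodes BCL-W, at 0.15 ± 0.11. Bcl2 and Mcl1 each had another, dimmer row, and these pointed the other way, at 0.34 for Bcl2 and −0.20 for Mcl1 on the log2 scale. With the mean of their rows Bcl2 stood at 0.10 and Mcl1 at −0.0020, so the direction of both rests on the row taken.

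The pore-forming effectors were both slightly positive. Bok, a BAX relative that can act without BH3-only proteins, was at 7.37 and 7.32 on the control arrays and at 7.63 and 7.53 on the decitabine arrays. Its log2 fold change was 0.23 ± 0.10 with an adjusted p of 0.393 in limma. Bak1, a resident of the mitochondrial outer membrane, was at 0.10 ± 0.10.

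The BH3-only genes, which start the mitochondrial route, spread in both directions, with a median log2 fold change of 0.01 over 8 genes, 4 positive and 4 negative. Bmf, whose product is held at the actin cytoskeleton until the cell is damaged or detached, gave the largest difference of all 36 genes. It was at 6.52 and 6.36 on the control arrays and at 5.66 and 5.69 on the decitabine arrays. Both treated arrays lay well below both control arrays. The mean level went from 6.44 ± 0.12 (SD, n = 2) to 5.67 ± 0.02, 1.70-fold lower, a log2 fold change of −0.77 ± 0.11 (SE). Its adjusted p in limma was 0.104 without the trend and 0.00380 with it, and it passed as well when the genes tested were those above the 25th percentile of level (adjusted p = 0.0430) or above the median level (adjusted p = 0.00734). In the trend fit it no longer passed when control replicate 1 (adjusted p = 0.122) or control replicate 2 (adjusted p = 0.0572) was left out, or when all rows were fitted (adjusted p = 0.0858). Over the planned settings other than the design its adjusted p ran from 0.00380 to 0.571.

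Pmaip1, which encodes the MCL1 antagonist NOXA, was at 7.00 and 6.73 on the control arrays and at 7.18 and 7.24 on the decitabine arrays. The groups did not overlap, but the control arrays lay further apart than the gap between the groups. The log2 fold change was 0.34 ± 0.13, with an unadjusted p of 0.0445 and an adjusted p of 0.334 in limma, and 0.101 with the trend. Leaving out control replicate 2 gave 0.21 and leaving out control replicate 1 gave 0.48, so the size of the difference rests on which control array is used.

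Bbc3, which encodes PUMA, and Bcl2l11, which encodes BIM, were both lower on each decitabine array than on each control array. Bbc3 was at 5.78 and 5.58 on the control arrays and at 5.45 and 5.32 on the decitabine arrays, a log2 fold change of −0.29 ± 0.12. Bcl2l11 was at 7.20 and 7.16 and then at 6.86 and 7.02, a log2 fold change of −0.24 ± 0.11. Neither had an unadjusted p under 0.05 in the fit without the trend (0.0577 and 0.0728), and their adjusted p with the trend was 0.312 and 0.209. Both genes are textbook targets of FoxO transcription factors, so their windows were searched, with these values known, for the FoxO core letters GTAAACA on either strand. That word occurred in 2 of the 45 windows of the regulators, 1 of 2 of Bcl2l11 and 1 of 3 of Bbc3. This share, 4.44%, lay near the 3.17% of 32850 windows of all genes. The match is in capitals in these windows of GRCm38.p6, and it lies 221 to 227 bases before the start in Bcl2l11 and, as its reverse complement, 161 to 167 bases before it in Bbc3.
Bcl2l11, chr2:128125788-128126037, plus strand: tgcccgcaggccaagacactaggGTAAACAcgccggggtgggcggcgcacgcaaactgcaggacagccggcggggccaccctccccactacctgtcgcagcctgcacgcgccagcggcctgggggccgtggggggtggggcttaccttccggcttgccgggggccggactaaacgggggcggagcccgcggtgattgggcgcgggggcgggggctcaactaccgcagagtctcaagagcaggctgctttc
Bbc3, chr7:16310011-16310260, plus strand: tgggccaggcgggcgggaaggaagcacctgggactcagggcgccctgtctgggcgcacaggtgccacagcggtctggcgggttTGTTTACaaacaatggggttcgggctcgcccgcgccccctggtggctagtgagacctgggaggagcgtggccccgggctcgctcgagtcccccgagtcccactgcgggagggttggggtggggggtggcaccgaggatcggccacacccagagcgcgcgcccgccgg
The 3 windows of Bmf held no such match, which says only that these letters are not there. A match likewise says only that the letters are there. Whether FoxO factors bear on the differences of Bbc3 and Bcl2l11 was not tested.

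Of the remaining BH3-only genes, Bid, which caspase-8 cleaves to link the receptor route to mitochondria, was at 0.28 ± 0.12, with its decitabine arrays at 6.05 and 6.30 above controls at 5.92 and 5.87. Bad and Bik, at 0.03 ± 0.17 and 0.14 ± 0.12, had decitabine arrays that lay 0.42 and 0.22 apart, wider than the difference between the groups. Hrk was at −0.01 ± 0.11 and was the dimmest of the regulators on the array, at 3.35 and 3.46 and then 3.32 and 3.47.

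Caspases, the proteases that carry out or start cell death, included 1 member that passed with the trend, Casp6, and 5 that did not. Casp6, an executioner that cleaves nuclear lamins, was at 9.13 on both control arrays and at 8.57 and 8.55 on the decitabine arrays. The decitabine arrays lay 0.016 apart and the nearest arrays of the 2 groups 0.56 apart. Its log2 fold change was −0.57 ± 0.09, 1.48-fold lower, with an adjusted p in limma of 0.129 without the trend and 5.19e-04 with it. Of the other planned settings it passed only when the genes tested were those above the median level (adjusted p = 0.0108). In a combination added after seeing the data, it passed with the trend and all rows fitted (adjusted p = 0.0447). Leaving out 1 array moved the log2 fold change only between −0.58 and −0.56.

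Casp9, the initiator of the apoptosome, was lower on both decitabine arrays as well, at 6.71 and 6.73 and then 6.49 and 6.53. That difference, −0.21 ± 0.10, did not pass (adjusted p = 0.410 in limma, 0.316 with the trend). Casp8, the initiator at death receptors, was at 9.98 and 10.02 and then at 10.09 and 10.10, a log2 fold change of 0.09 ± 0.10. Casp2, an initiator linked to DNA damage, was at −0.04 ± 0.10, the inflammatory caspase gene Casp1 at 0.01 ± 0.10 and Casp12, a caspase of the endoplasmic reticulum in mice, at 0.12 ± 0.13. For these 4 the 95% interval excluded a difference beyond 0.46 on the log2 scale.

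**Figure D3:**
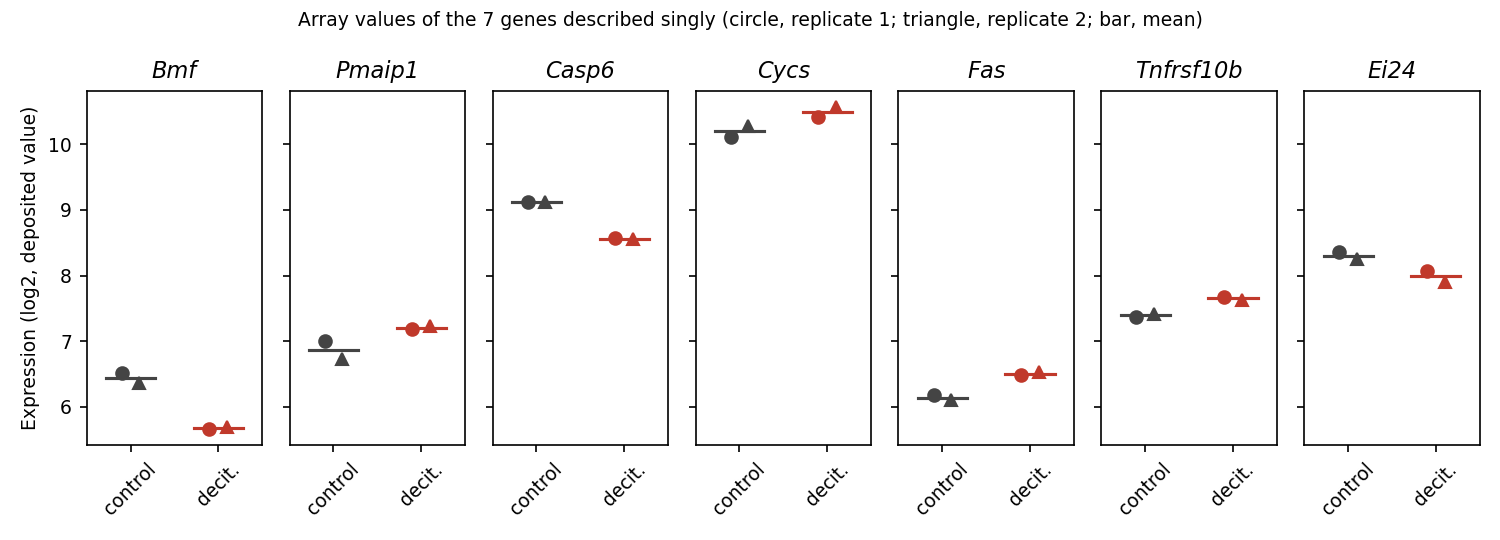
Deposited log2 values (vertical axis) on each of the 4 arrays for the 7 regulators with an unadjusted p under 0.05 or an adjusted p under 0.05 with the trend. Circles are replicate 1, triangles replicate 2, bars group means. In each gene the decitabine arrays lie on 1 side of the control arrays, closest together in Casp6 and widest apart within a group in Pmaip1 controls at 7.00 and 6.73. Levels of different genes come from different probes and are not to be set against each other.

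Of the apoptosome genes, Cycs, which encodes cytochrome c, was at 10.11 and 10.28 on the control arrays and at 10.42 and 10.57 on the decitabine arrays. The groups did not overlap, with a gap of 0.14 between the nearest arrays, narrower than the 0.17 between the control arrays and the 0.16 between the decitabine arrays. Its log2 fold change was 0.30 ± 0.12, with an adjusted p of 0.356 in limma without the trend and 0.0322 with it. The call was lost when all rows were fitted with the trend (adjusted p = 0.254) or when any of 3 arrays was left out of that fit, and was kept without decitabine replicate 1 (adjusted p = 0.0178). Cycs had 5 rows on the array, all of them positive at 0.25 to 0.33 on the log2 scale, 2 of which carried identical values. Near-identical copies of this gene exist in the mouse genome, so which copies the rows measured is uncertain. Apaf1, the scaffold of the apoptosome, was at −0.08 ± 0.11.

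The inhibitors of apoptosis proteins, which bind caspases or ubiquitinate receptor complexes, gave 0 calls with or without the trend. Xiap, the direct caspase inhibitor, was at 6.73 and 6.66 and then at 6.49 and 6.46, a log2 fold change of −0.22 ± 0.10 (adjusted p = 0.390 in limma). Birc3, which encodes cIAP2, was at 6.30 and 6.32 and then at 6.52 and 6.50, a log2 fold change of 0.19 ± 0.09 (adjusted p = 0.441). These 2 genes had separated groups in opposite directions, and neither passed with the trend (adjusted p = 0.285 and 0.402). Birc2, which encodes cIAP1 and is the neighbour of Birc3 on chromosome 9, was at 0.10 ± 0.12, and Diablo, the gene of the IAP antagonist SMAC, at −0.04 ± 0.10.

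Of the death receptor genes, Fas and Tnfrsf10b were higher and Tnfrsf1a lower on both decitabine arrays. Fas was at 6.18 and 6.10 on the control arrays and at 6.49 and 6.53 on the decitabine arrays, the largest positive difference among the regulators. Its mean went from 6.14 ± 0.06 (SD, n = 2) to 6.51 ± 0.03, 1.29-fold higher, a log2 fold change of 0.36 ± 0.10 (SE). The unadjusted p was 0.0139 and the adjusted p 0.234 in limma, 0.0825 with the trend. It passed in 1 setting, when testing was limited to genes above the median level (adjusted p = 0.0390). Tnfrsf10b, which encodes the mouse TRAIL receptor, was at 7.37 and 7.42 and then at 7.67 and 7.63. Both treated arrays lay above both controls, and the log2 fold change of 0.26 ± 0.10, 1.20-fold, had an adjusted p of 0.333, or 0.107 with the trend.

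Tnfrsf1a, the main TNF receptor, was lower on the decitabine arrays, at 9.36 and 9.26 against 9.62 and 9.51. Its log2 fold change of −0.25 ± 0.11 had an adjusted p of 0.375 in limma and 0.0504 with the trend, just outside the threshold. Fadd, the adaptor that joins FAS to caspase-8, was at −0.13 ± 0.10. Cflar, the gene of the caspase-8 inhibitor FLIP, was at −0.18 ± 0.10 and lies beside Casp8 on chromosome 1. In Tnfrsf1a, Fadd and Cflar alike the decitabine arrays lay below the control arrays, and none of the 3 differences passed in limma with or without the trend.

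The genes of necroptosis and pyroptosis were measured at the executioner stage and above. Mlkl was at 8.90 and 8.91 on the control arrays and at 9.06 and 9.28 on the decitabine arrays. The control arrays nearly coincided, while the treated arrays lay 0.22 apart. Its log2 fold change was 0.27 ± 0.12 with an adjusted p of 0.392 in limma and 0.0725 with the trend. Ripk3, the kinase that activates MLKL, was at 0.02 ± 0.11, and Gsdmd, the pore former of pyroptosis, at 0.09 ± 0.10.

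Among the remaining p53-responsive death genes, Ei24, a membrane protein gene of the endoplasmic reticulum, was at 8.36 and 8.25 and then at 8.08 and 7.91. Every decitabine array lay below every control array. The log2 fold change was −0.31 ± 0.11, 1.24-fold lower, with an unadjusted p of 0.0396 and an adjusted p of 0.327 in limma, 0.0543 with the trend. Perp, a membrane protein gene of desmosomes, was at 4.28 and 4.70 and then at 4.54 and 4.62, and its control arrays lay 0.42 apart. Its difference, 0.09 ± 0.16, lay within that spread.

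Counted by arrays, 14 of the 36 regulators had both decitabine values above both control values and 12 had both below. These shares of 38.9% and 33.3% compare with 23.4% and 22.5% of all 22180 genes. The regulators are brighter on the array than most genes, 34 of the 36 lying above the median level. In the trend fit their median standard error was 0.10 against 0.16 over all genes, and without the trend 0.11 against 0.12. Among the 11090 genes above the median level, 28.6% had both decitabine values above and 30% both below, against 41.2% and 35.3% of the 34. In the trend fit, 12 of those 34 had an unadjusted p under 0.05, which is 35.3% against 32% of those 11090 genes (18.6% of all genes, 9.25% higher and 9.38% lower). After adjustment 3 of the 34 passed, 8.82% against 14% of those genes. Beside genes above the median level, the share at the unadjusted p was thus near the background. The shares with separated arrays were above the background and the share after adjustment below it. None of these contrasts was tested. The regulators were chosen with earlier results of these data known, so a share above the background is no evidence about them.

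**Figure D4:**
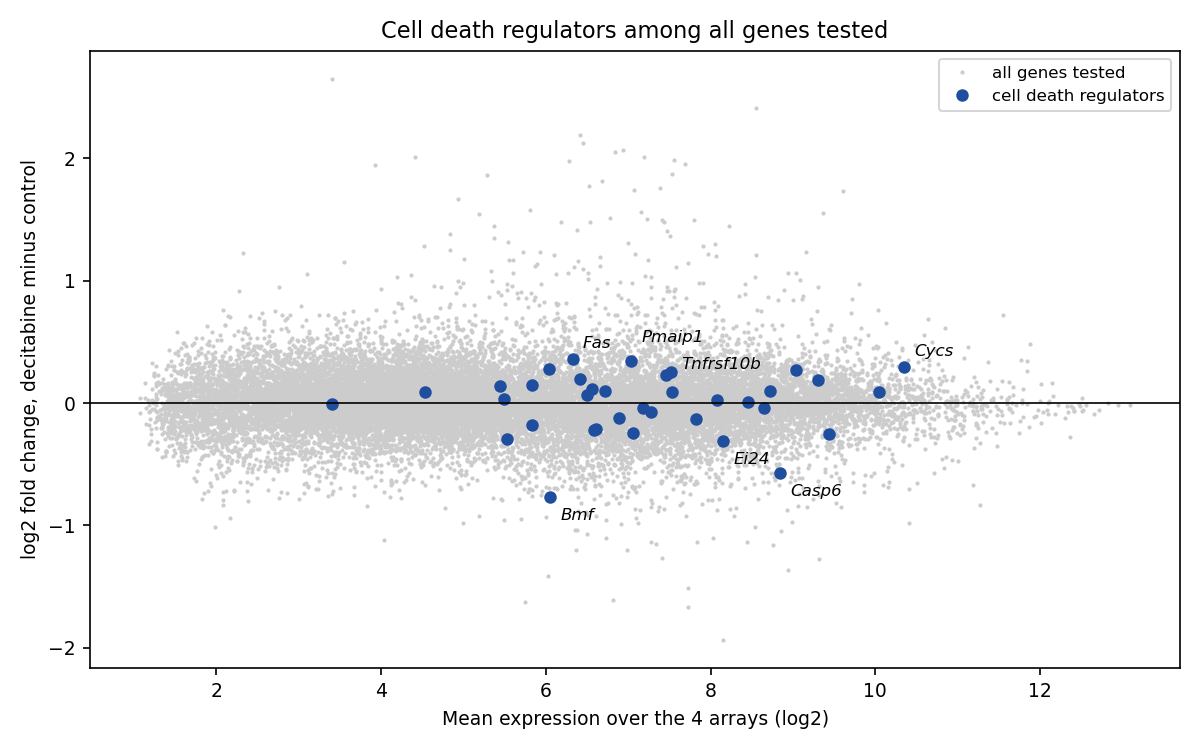
Mean log2 expression over the 4 arrays (horizontal axis) against the log2 fold change of decitabine over control (vertical axis) for all 22180 genes (grey) and the 36 regulators (blue). The regulators span −0.77 to 0.36 and lie inside the cloud of all genes, which spans −1.93 to 2.65, and 34 of them lie above the median level of 5.23.

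Other genes of the cell death pathways, taken from a list of 97 of which 85 were measured, gave 0 calls over all genes in limma without the trend, where 0.144% of all genes passed. By unadjusted p (threshold 0.05), 10 genes of the list were higher and 4 lower, 16.5% of the 85 against 14.3% of all genes (7.34% higher and 6.97% lower). With the trend 10 were higher and 3 lower over all genes, 15.3% of the 85 against 7.28% of all genes (3.68% higher and 3.6% lower). All 13 were among the 62 that lie above the median level, 21.0% of those against 14% of all genes above it. The list was chosen with earlier results of these data known, so a share above the background is no evidence about these pathways. The largest differences were wider than those of the regulators above. Tnfrsf12a, the receptor of the cytokine TWEAK, was at 8.61 and 8.39 on the control arrays and at 9.56 and 9.57 on the decitabine arrays, a log2 fold change of 1.06 ± 0.12 (adjusted p = 0.0762 in limma, 3.54e-05 with the trend). Dapk1, a death-associated kinase gene, was at 8.16 and 7.94 and then at 7.01 and 6.55, a log2 fold change of −1.26 ± 0.19 (adjusted p = 0.108, 3.93e-04 with the trend). Its treated arrays lay 0.46 apart, and the groups were still well separated.

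Of the higher genes, Tnfrsf21, which encodes death receptor 6, was at 0.78 ± 0.10 and Tnfaip3, the ubiquitin-editing inhibitor A20 of TNF signalling, at 0.81 ± 0.10. Zbp1, which engages RIPK3, was at 1.00 ± 0.11. Cyld, a deubiquitinase of the RIPK1 complex, was at 0.43 ± 0.10, and Casp4, the inflammatory caspase that senses cytosolic lipopolysaccharide, at 0.44 ± 0.10. These 5 passed over all genes with the trend (adjusted p from 3.75e-04 to 0.0215) and not without it. Of the lower genes, Cradd, an adaptor of caspase-2, was at −0.58 ± 0.14 and Mdm4, a p53 inhibitor, at −0.40 ± 0.11, and both passed with the trend (adjusted p = 0.0199 and 0.0330). Septin4, whose ARTS isoform binds XIAP, was at −0.46 ± 0.10 and did not pass (adjusted p = 0.0803 with the trend).

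The calls among the regulators depended on the variance model and on which genes were tested, as the plot of adjusted p by setting shows. The direction of the 7 genes described with a p under the threshold did not change in any of the 19 other settings. Most of these could not have changed it. The groups of arrays did not overlap in these genes, so leaving out 1 array keeps the sign. The filters, variance models and replicate block leave the log2 fold change as it is. The constant direction is thus no sign of robustness. The 19 include combinations with the trend that were added after seeing the data. Among the planned settings Casp6 passed above the median level and with the trend. Bmf passed in both of these and above the 25th percentile of level. Cycs passed with the trend alone and Fas above the median level alone. Pmaip1, Tnfrsf10b and Ei24 passed in 0 planned settings, and Ei24 passed only in added combinations.

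**Figure D5:**
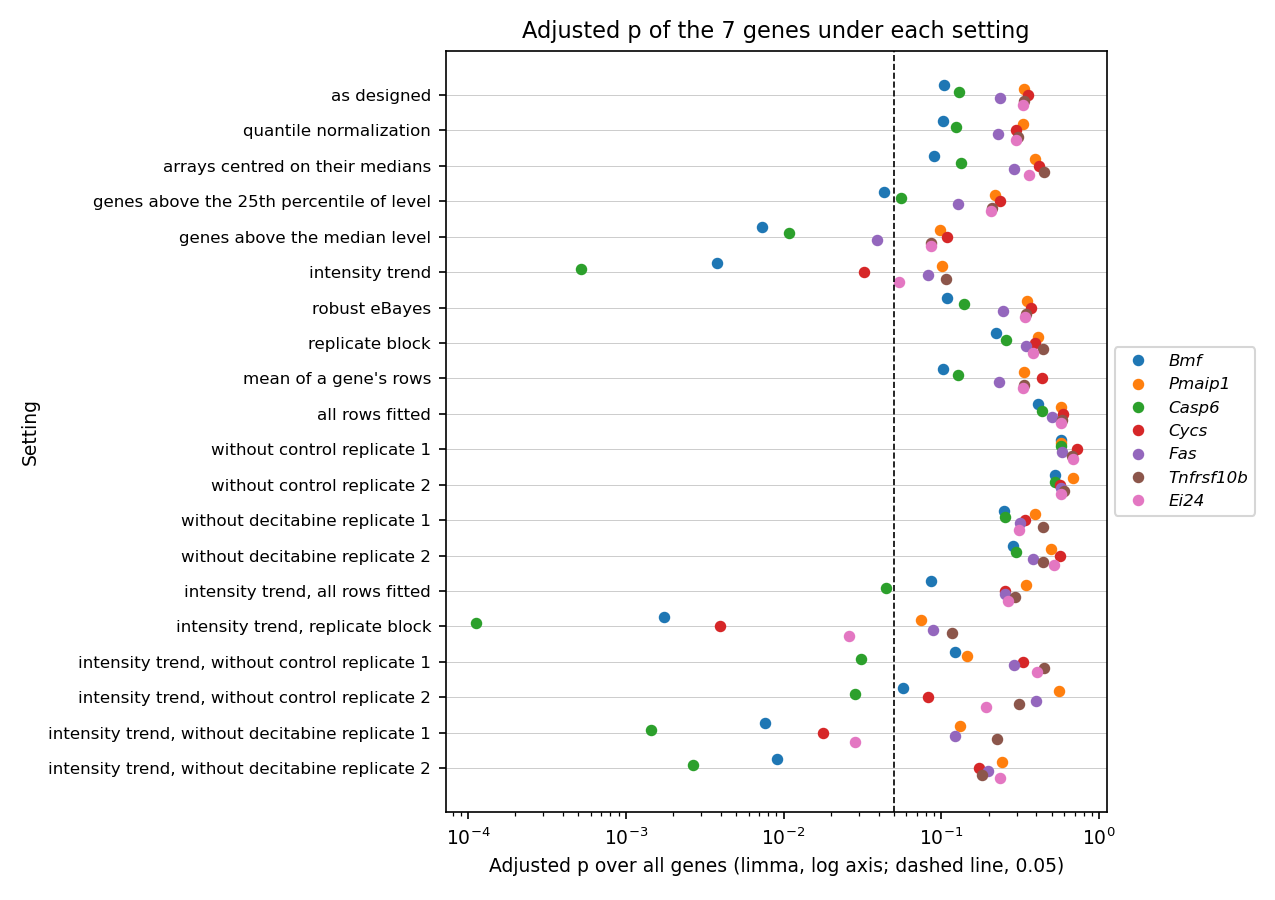
Adjusted p over all genes in limma (horizontal log axis, dashed line at 0.05) for 7 regulators under the fit as designed and 19 other settings (vertical axis). Casp6 reaches 5.19e-04 and Bmf 0.00380 with the intensity trend, against 0.129 and 0.104 as designed.

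Over the whole series, replicate arrays correlated across genes at a Pearson's r of 0.995 for controls and 0.993 for decitabine, arrays of different groups at 0.990 to 0.991, and 29 genes were called higher and 3 lower. No background level was set, so a dim row does not show that a gene is absent. As a check of the labelled tissue, 9 epithelial and mesothelial markers had mean levels from 3.55 (Pax8) to 10.7 (Wt1). The 5 fibroblast markers ran from 2.75 (Lum) to 11.8 (Dcn), 5 of 6 leukocyte markers from 2.94 to 5.63 and 4 endothelial markers from 3.57 to 6.03. Above the 75th percentile of level lay 4 of the 9 epithelial and mesothelial markers and 4 of the 5 fibroblast ones. Of the leukocyte and of the endothelial markers 0 lay there. By an unadjusted p below 0.05 in limma, 7.34% of all genes were higher and 6.97% lower. Among the markers, 4 of the 9 epithelial and mesothelial ones were higher and 1 lower, and 1 of the 5 fibroblast ones was lower. Of the 4 endothelial markers 2 were higher, and of the 5 measured leukocyte markers 1. The part of the markers in the differences of the regulators was not tested.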

How the data were processed

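The deposited table holds 1 value per row and array, with 41345 rows and 0 columns of other series. The deposited values, complete and between 0.55 and 13.3, were read as log2 expression. The log base and how the authors summarised, corrected or scaled the arrays are not given in the sources used here, and logs of another base would change every fold. The labels' protocols record a column extraction, biotin labelling with a whole-transcript kit and hybridisation to Affymetrix Mouse Gene 2.0 ST arrays. Without scanner files, background could not be estimated.

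Rows with 1 platform symbol (23521) were kept and those with several (1814) or none (16010) left out, and the row with the highest mean was taken for each of the 1082 genes with several. This left 22180 genes. Of the kept rows 23328 had an Entrez identifier in RefSeq's table of GRCm38.p6, and 0 symbols changed. The comparison used limma 3.58.1 (R 4.3.3), a linear model on group alone with moderated two-sided tests, p adjusted by Benjamini-Hochberg across the 22180 genes and called below 0.05. Errors are limma's SE unless SD is written. That SE combines a gene's own scatter with a prior SD of 0.121 taken from all genes (prior degrees of freedom 3.07).

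The regulators and lists were chosen with earlier results of these data known. The naming rule gives array values for regulators with an unadjusted p under 0.05, or an adjusted p under 0.05 with the trend, and names up to 6 higher and 6 lower genes of the wider list. Other array values were added after they were seen. Promoters come from RefSeq on GRCm38.p6, matched by symbol. The fit was tested on simulated data in which the spread of a gene did not depend on its level. That test cannot decide between the fits with and without the trend. Alternatives covered scaling, dim-gene filters, variance models, the replicate number as a block, the rows used and leaving out each array. The deviations of same-numbered samples of the 2 groups did not correlate across all genes (r = −0.02), so the numbers were not treated as pairs. That r weighs dim and bright genes alike and cannot exclude a pairing. The replicate block gave 1896 genes called against 1615 with the trend, a combination added after seeing the data, and 0 against 32 without it. Python 3.11.15 and matplotlib 3.10.9 drew the figures.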

Additional observations from a re-analysis of the deposited data

How the results depend on the processing

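The count of all genes called was 32 as designed. It was 51 with centred arrays, 215 above the 25th percentile of level, 1251 above the median level, 1615 with the intensity trend, 18 with robust eBayes, 0 with the replicate block, 0 with all rows fitted, and 0 to 0 when 1 array was left out. The count of regulators called, 0 as designed, was 1 above the 25th percentile (35 of the 36 tested, without Hrk), 3 above the median level (34 tested, without Hrk and Perp) and 3 with the trend, and it stayed at 0 under the other planned settings, the replicate block among them. Combinations added after seeing the data gave, for all genes and for regulators, 165 and 1 with the trend and all rows, 1896 and 6 with the trend and the replicate block, 338 and 1 with the trend and without control replicate 1, 399 and 1 without control replicate 2, 1605 and 6 without decitabine replicate 1, and 1011 and 2 without decitabine replicate 2. Both sets of 6 were Bmf, Casp6, Cycs, Ei24, Mlkl and Tnfrsf1a. Regulators higher at an unadjusted p under 0.05, 3 as designed, became 1 with centred arrays, 8 above the median level, 7 with the trend, 1 with all rows and 0 to 3 with 1 array left out, the 0 without control replicate 2. Regulators lower, also 3, became 6 above the 25th percentile, 8 above the median level and 5 with the trend, and 2 to 3 with 1 array left out. The lower genes of the wider list, 4, became 8 above the median level and 3 to 6 with 1 array left out, and the higher ones, 10, became 12 above the median level, 12 with the trend and 8 to 11 with 1 array left out. All-gene shares to set beside these unadjusted counts are given only for the fit as designed (14.3%) and with the trend (18.6%). For the other settings no such share is given, so a changed count there does not set the regulators or the wider list apart. The regulators' median log2 fold change, 0.05, ran from −0.01 to 0.07 with 1 array left out, the negative value without control replicate 1. Why calls differ between variance models or between filters was not tested. Leaving out 1 array leaves a group with a lone sample that is assumed to vary like the other group.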
